A study of Mus musculus with 12 samples.

Results

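Dual specificity phosphatases remove phosphate from both tyrosine and serine or threonine residues of their substrates, and several of them act on MAP kinases. The genes described here are 7 of the 22390 features of a muscle transcript table: Dusp29, Dusp8, Dusp1, Dusp3, Dusp10, Dusp16 and Dusp26. They were chosen by symbol. Dusp29 and Dusp8 led the training and interaction comparisons of these same libraries, so their values in those comparisons are a description and carry no test. The other 5 were taken as phosphatases of the same family.

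The mice were male db/db animals on the C57BL/KsJ background. All 4 groups therefore lack a working leptin receptor and are obese and diabetic, and no lean group is part of the comparison. Mice were 8 weeks old when assigned to 1 of 4 groups, with 3 libraries in each. Control mice were reared normally, HIIT mice did high-intensity interval training, semaglutide mice received that agonist of the GLP-1 receptor, and combination mice had both. HIIT was treadmill running for 8 weeks, on 5 days of each: 10 fast bouts (85 to 90% of top speed) that lasted 4 min, separated by rests of 2 min. Semaglutide was injected under the skin every day, at a dose that the protocol puts at 30 nmol/kg and the titles put at 0.05 mg/kg. These statements of the dose were not reconciled. No sham injection is named for the other two groups, which means that effects of the drug and of being injected cannot be told apart. The labels do not say which animal gave each library, and p-values then measure only how far these samples spread, which may be technical.

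MAP kinases (ERK, JNK and p38) are switched on by phosphorylation of a threonine and a tyrosine in their activation loop, and a MAP kinase phosphatase switches them off by removing both. The classical MAP kinase phosphatases, here Dusp1, Dusp8, Dusp10 and Dusp16, carry a kinase-binding domain beside the catalytic domain. The atypical members Dusp3, Dusp26 and Dusp29 are smaller and lack that domain. In skeletal muscle, p38 and JNK respond to contraction, stress and insulin resistance, and transcription of several phosphatases is itself induced by the kinases they restrain.

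The stretches upstream of Dusp29, Dusp8 and Dusp1 are shown because the results below turn on these genes, and because they hold letters that match sites of signal-responsive transcription factors. They are 250 bases that end just before the annotated start, from RefSeq on GRCm38.p6, which is not the build of the expression table. An entry was found for 6 of the 7 genes, all but Dusp26. Capitals mark the motifs found.
Dusp29: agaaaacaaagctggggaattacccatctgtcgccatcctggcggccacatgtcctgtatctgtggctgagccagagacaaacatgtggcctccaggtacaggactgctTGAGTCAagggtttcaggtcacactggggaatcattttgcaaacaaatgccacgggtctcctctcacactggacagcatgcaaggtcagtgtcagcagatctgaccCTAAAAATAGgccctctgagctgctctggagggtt
Dusp8: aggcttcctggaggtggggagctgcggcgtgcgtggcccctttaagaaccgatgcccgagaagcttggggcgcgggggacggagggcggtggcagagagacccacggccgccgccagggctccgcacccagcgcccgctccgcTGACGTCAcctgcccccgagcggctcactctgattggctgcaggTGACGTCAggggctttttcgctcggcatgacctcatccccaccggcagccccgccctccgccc
Dusp1: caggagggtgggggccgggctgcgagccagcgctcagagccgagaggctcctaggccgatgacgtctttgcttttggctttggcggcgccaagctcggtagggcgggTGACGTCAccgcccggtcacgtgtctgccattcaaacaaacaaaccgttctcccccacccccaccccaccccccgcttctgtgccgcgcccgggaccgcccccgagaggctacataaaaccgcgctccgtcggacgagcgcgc

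The Dusp29 stretch lies at chr14:21714577-21714826, the Dusp8 stretch at chr7:142095285-142095534 and the Dusp1 stretch at chr17:26508473-26508722, all on the minus strand. In these windows 5 motifs were searched on both strands: the cAMP response element TGACGTCA, the MEF2-type motif (CTA and TAG with any 4 bases between them), the E-box CAGCTG, the AP-1 site TGANTCA and the glucocorticoid response element (GNACA and TGTNC with any 3 bases between them). Dusp29 held 1 MEF2-type motif, 35 to 26 bases before the start, and 1 TGANTCA, 141 to 135 bases before it. Dusp8 held 2 copies of TGACGTCA, at 107 to 100 and 63 to 56 bases, and Dusp1 held 1 copy, at 143 to 136 bases. The motifs did not overlap. Among 32851 annotated promoter windows of the same length, 1.55% held TGACGTCA, 3.2% the MEF2-type motif, 13% CAGCTG, 6.75% TGANTCA and 0.387% the glucocorticoid element. The windows of Dusp3, Dusp10 and Dusp16 held none of the 5. A match is a run of letters and not a measured binding site.

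The deposited values are FPKM, that is, fragment counts divided by transcript length and library depth. They summed to 533412 to 586817 per library, 9181 to 10690 features reached an FPKM of 1, and the estimated depth was 17.2 to 21.3 M fragments. Combination replicates 2 and 3 had the lowest medians, 2.51 and 2.50 on the log2(FPKM + 1) scale. The tissue is labelled muscle and the protocol names soleus, a muscle rich in slow fibres in mice. The fast myosin Myh4 took 82.3 to 95% of the summed level of Myh4, Myh1, Myh2 and Myh7, and the slow Myh7 took 0.0559 to 1.52%, so the libraries hold mainly fast-fibre RNA and go against a slow soleus. Liver transcripts were also present, in 10 hepatocyte markers whose sum ranged over 234 to 1580 FPKM (control), 99.6 to 562 (HIIT), 25.5 to 184 (semaglutide) and 55.9 to 189 (combination). Control replicates 1 and 2 and HIIT replicate 1 were the richest in liver transcripts.

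All 7 phosphatases reached an FPKM of 1 in 3 or more of the 12 libraries, the filter that 10666 features passed. FPKM is per length, so levels can be set side by side. Dusp1 and Dusp3 were the most abundant, at the 86.4th and 85th percentile of the genes kept by mean level. Dusp26 stood at the 73.9th, Dusp10 at the 62.5th, Dusp29 at the 48.8th, Dusp8 at the 44.7th and Dusp16 at the 38th. From transcript lengths of an older annotation, these values correspond to about 57 to 188 fragments per library for Dusp29, 300 to 540 for Dusp8 and 569 to 2251 for Dusp1.

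**Figure D1:**
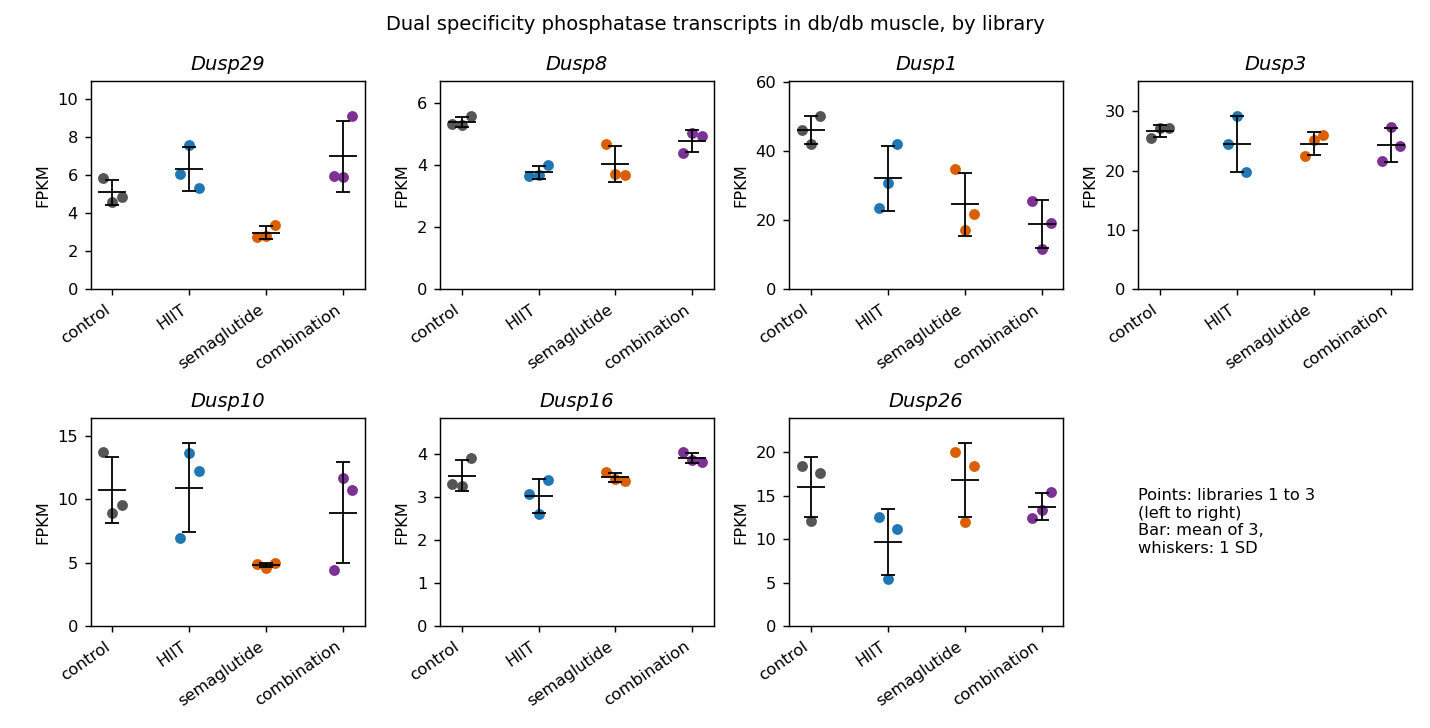
Level of each of the 7 phosphatase genes in FPKM (vertical axis, from 0) in the 3 libraries of each group (points), with the mean (bar) and 1 SD (whiskers). The 3 semaglutide libraries of Dusp29 lie between 2.74 and 3.38, under the 9 other libraries, and the 3 control libraries of Dusp8 lie between 5.28 and 5.59, above the 9 others.

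Semaglutide averaged over HIIT sets the 6 libraries of mice given semaglutide, here called injected, against the 6 of mice not given it, here called uninjected. Whether the latter had a sham injection is not stated in the labels. In the balanced layout it is orthogonal to the training and interaction comparisons, so it did not take part in the choice of Dusp29 and Dusp8. The other 5 genes were taken from a larger family with earlier results of this comparison known, and for them, Dusp1 included, a call here is not independent of the choice. Of 10666 genes tested with limma, 16.8% passed an adjusted p of 0.05 there (Benjamini-Hochberg over all genes), 4.69% higher and 12.2% lower. Of the 7 phosphatases 0 rose, 1 fell and 6 did not pass, a share near that background. Their median log2 difference was -0.06, against -0.08 over all genes. With values centred on each library's median, the median of all genes moved from -0.08 to 0.03 and the calls split into 1153 higher and 807 lower, against 500 and 1296 as deposited, so small differences in this comparison depend on the scaling.

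Dusp1 was the gene that fell. It encodes MAP kinase phosphatase 1, a nuclear phosphatase of p38, JNK and ERK, and it is both an immediate early gene and a classical target of glucocorticoids. Control libraries stood at 46.1, 42.1 and 50.1 FPKM and HIIT libraries at 23.5, 30.8 and 42.1. Semaglutide libraries stood at 34.7, 17.1 and 21.9 FPKM and combination libraries at 25.6, 11.6 and 19.2. The controls were the highest 3 of the 12, though the lowest control and the highest HIIT library both round to 42.1, and the HIIT, semaglutide and combination groups overlapped. All 6 libraries of injected mice lay below the median of the uninjected ones, and 4 of 6 lay below the lowest uninjected library. The share of all genes with such splits of injected and uninjected libraries, here and for the genes below, was not counted.

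The group means of Dusp1 were 46.1 ± 4.01 FPKM (SD, n = 3) for control, 32.1 ± 9.35 for HIIT, 24.6 ± 9.06 for semaglutide and 18.8 ± 6.97 for the combination. Averaged over HIIT, Dusp1 fell by 0.85 on the log2(FPKM + 1) scale with semaglutide (SE 0.22, limma adjusted p = 0.0258), from a mean of 39.1 to 21.7 FPKM. The call rests on the full set of libraries: leaving out control replicate 1, semaglutide replicate 2 or 3, or combination replicate 2 or 3 gave adjusted p = 0.0514, 0.0578, 0.0524, 0.0526 and 0.0502 in limma, with differences of -0.85, -0.74, -0.83, -0.71 and -0.88. Without the 3 liver-rich libraries the difference was -1.01 (limma adjusted p = 0.118), and without the 2 combination libraries of lowest median it was -0.61 (limma adjusted p = 0.165). In bulk RNA, fewer cells that express a gene and less RNA per cell cannot be told apart.

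Markers of other cells moved in the same comparison, in which 12.2% of all genes fell. Of 7 endothelial markers 5 fell with semaglutide (median -0.40), a count of 2 with median centring and of 2 to 6 when single libraries were left out. The libraries whose omission gave 2 were control replicates 1 and 2, HIIT replicate 1, replicates 2 and 3 of semaglutide and replicate 3 of the combination. Omitting any other library but HIIT replicate 3 or combination replicate 1 gave 3. Kdr was at -0.64, Tie1 at -0.40 and Cdh5 at -0.31, while Pecam1, the most abundant, was at -0.05. Their summed level was 66.7 to 73.0 FPKM (control), 47.6 to 74.1 (HIIT), 47.3 to 53.0 (semaglutide) and 47.5 to 52.6 (combination). Of 6 fibroblast markers 4 fell (median -0.86), with Dcn at -0.28, Dpt at -0.62 and Col1a2 at -1.13, a count of 6 without HIIT replicate 2. Of 10 hepatocyte markers 9 fell (median -2.88), with Alb at -4.93, Apoa2 at -4.02 and Hp, which did not pass, at -0.89. Without the 3 liver-rich libraries, control replicate 3 was the only control left. The medians there were -0.29 (endothelial), -0.46 (fibroblast) and -1.75 (hepatocyte). In some library the liver markers Ttr, Fga and Fgg were at 0.

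Macrophage markers did not pass (0 of 8, median -0.77, Lyz2 at -1.11), with sums of 33.4 to 109 FPKM (control), 32.3 to 166 (HIIT), 20.4 to 33.4 (semaglutide) and 24.5 to 93.7 (combination), and Adgre1 was at 0 in some library. Without HIIT replicate 2, the HIIT library lowest in these markers (32.3 FPKM), 6 of the 8 fell (median -1.09), and without combination replicate 1 the count was 1. Of 8 adipocyte markers 1 fell (median -0.88, from -2.55 to -0.40). Fabp4 was not the lowest of them, at -1.17. The sums of the 8 were 242 to 895, 574 to 938, 122 to 411 and 175 to 713 FPKM in the same order of groups. Of 10 slow-fibre markers 1 fell (median -1.01), and 0 of 10 fast-fibre and 0 of 4 kept Schwann cell markers passed. The part of these cells in the fall of Dusp1 was not tested.

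Dusp10, also called MAP kinase phosphatase 5, prefers p38 and JNK, and mice without it regenerate muscle better after injury. Control libraries stood at 13.7, 8.94 and 9.58 FPKM and HIIT libraries at 6.93, 13.6 and 12.2. Semaglutide libraries stood at 4.88, 4.61 and 4.96 FPKM and combination libraries at 4.41, 11.7 and 10.8. The semaglutide group was low and tight (4.82 ± 0.181, SD, n = 3), but combination replicate 1 was lower still, and the other two combination libraries lay within the range of the uninjected ones. Averaged over HIIT, Dusp10 was at -0.65 ± 0.22 (SE) with semaglutide and did not pass (limma adjusted p = 0.0709). The HIIT and combination libraries of the same number followed each other, with replicate 1 low in both. With a replicate block within these 2 groups, added after seeing the data, Dusp10 passed at the same difference (-0.65 ± 0.10, limma adjusted p = 0.00375), but the labels do not say that the numbers pair the libraries. Without HIIT replicate 1 it also passed (-0.79, limma adjusted p = 0.0434). Without the 2 combination libraries of lowest median the difference was -1.04. That fit leaves only combination replicate 1, the lowest of the 12 libraries for Dusp10, so no call is read from it.

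Dusp16, MAP kinase phosphatase 7, binds JNK and p38 and shuttles between nucleus and cytoplasm. Control libraries stood at 3.32, 3.26 and 3.91 FPKM, HIIT libraries at 3.07, 2.61 and 3.40, semaglutide libraries at 3.57, 3.42 and 3.39 and combination libraries at 4.04, 3.87 and 3.82. The combination libraries were high and close together and overlapped with controls. Averaged over HIIT the difference with semaglutide was 0.14 ± 0.07 (SE, limma adjusted p = 0.176).

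Among the atypical members, Dusp3 (VHR), a phosphatase of ERK and JNK, varied little between groups. Its libraries stood at 25.6, 27.3 and 27.2 FPKM (control), 24.5, 29.3 and 19.8 (HIIT), 22.4, 25.2 and 26.1 (semaglutide) and 21.7, 27.3 and 24.1 (combination). The HIIT range covered all 9 other libraries. The difference with semaglutide was -0.06 ± 0.09 (SE, limma adjusted p = 0.689), and its sign turned with the scaling.

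Dusp26, an atypical phosphatase reported to act on p38 and best known from neural tissue, had control libraries at 18.5, 12.1 and 17.6 FPKM and HIIT libraries at 12.5, 5.37 and 11.2. Semaglutide libraries stood at 20.0, 11.9 and 18.5 FPKM and combination libraries at 12.4, 13.4 and 15.5. HIIT replicate 2 was the lowest of the 12, and the groups overlapped. With semaglutide the difference averaged over HIIT was 0.29 ± 0.20 (SE, limma adjusted p = 0.32), and 0.12 without HIIT replicate 2. The difference with HIIT averaged over semaglutide was -0.48 ± 0.20 (SE).

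Dusp29, known as Dupd1 in older annotations, is expressed mainly in skeletal muscle, and in mice it is known to be induced when muscle loses its nerve. Control libraries stood at 5.82, 4.58 and 4.85 FPKM and HIIT libraries at 6.07, 7.56 and 5.30. Semaglutide libraries stood at 2.74, 2.80 and 3.38 FPKM and combination libraries at 5.93, 5.89 and 9.10. The semaglutide libraries lay below all 9 others, as in 0.919% of the genes kept, and combination replicate 3 was the highest of the 12. This order is part of what chose the gene.

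By mean, the order of Dusp29 was combination (6.97 ± 1.85, SD, n = 3), HIIT (6.31 ± 1.15), control (5.09 ± 0.652) and semaglutide (2.97 ± 0.352). Combination and HIIT overlapped, and so did HIIT and control, whereas control and semaglutide did not. The semaglutide mean was 0.585 of the control mean, and the combination mean was 2.34 times the semaglutide mean. On the log2(FPKM + 1) scale HIIT differed from control by 0.26 ± 0.16 (SE), while the combination differed from semaglutide by 0.98 ± 0.16 and semaglutide from control by -0.61 ± 0.16. The combination and control comparisons with semaglutide share the semaglutide libraries.

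The difference of Dusp29 with HIIT, averaged over semaglutide, was 0.62 ± 0.12 (SE). The interaction, the HIIT difference under semaglutide minus that without it, was 0.73 ± 0.23. For both comparisons limma called 0 of 10666 genes (0%), with 1341 and 822 genes at an unadjusted p under 0.05, and nothing is read from the values of the chosen genes against that. These counts rest on 1 library: without combination replicate 1, limma called 14 genes higher and 237 lower for HIIT averaged over semaglutide, and 2 higher and 22 lower for the interaction. With semaglutide averaged over HIIT, Dusp29 did not pass (-0.25 ± 0.12, limma adjusted p = 0.152), with 3 of 6 libraries of injected mice below all uninjected ones.

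Dusp8 (hVH5) is a classical MAP kinase phosphatase of JNK and p38 that is strong in brain, heart and skeletal muscle. Control libraries stood at 5.32, 5.28 and 5.59 FPKM and HIIT libraries at 3.64, 3.67 and 4.02. Semaglutide libraries stood at 4.69, 3.72 and 3.69 FPKM and combination libraries at 4.39, 5.05 and 4.94. Controls lay above all 9 others, as in 1.53% of the genes kept, and every combination library lay above every HIIT library. Semaglutide thus went with lower levels in all libraries without HIIT and with higher levels in all libraries with it, as full separation in opposite directions did in 0.544% of the genes kept.

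The order of the Dusp8 means was control (5.39 ± 0.168, SD, n = 3), combination (4.79 ± 0.354), semaglutide (4.03 ± 0.567) and HIIT (3.77 ± 0.208). Control and combination did not overlap, while combination overlapped with semaglutide and semaglutide with HIIT. Against control, HIIT was at -0.42 ± 0.10 (SE) and semaglutide at -0.35 ± 0.10, whereas the combination was at 0.28 ± 0.10 against HIIT and at 0.21 ± 0.10 against semaglutide. The interaction was 0.63 ± 0.14, and HIIT averaged over semaglutide -0.11 ± 0.07. With semaglutide averaged over HIIT the difference was -0.04 ± 0.07 (limma adjusted p = 0.742), and its sign turned with the scaling.

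**Figure D2:**
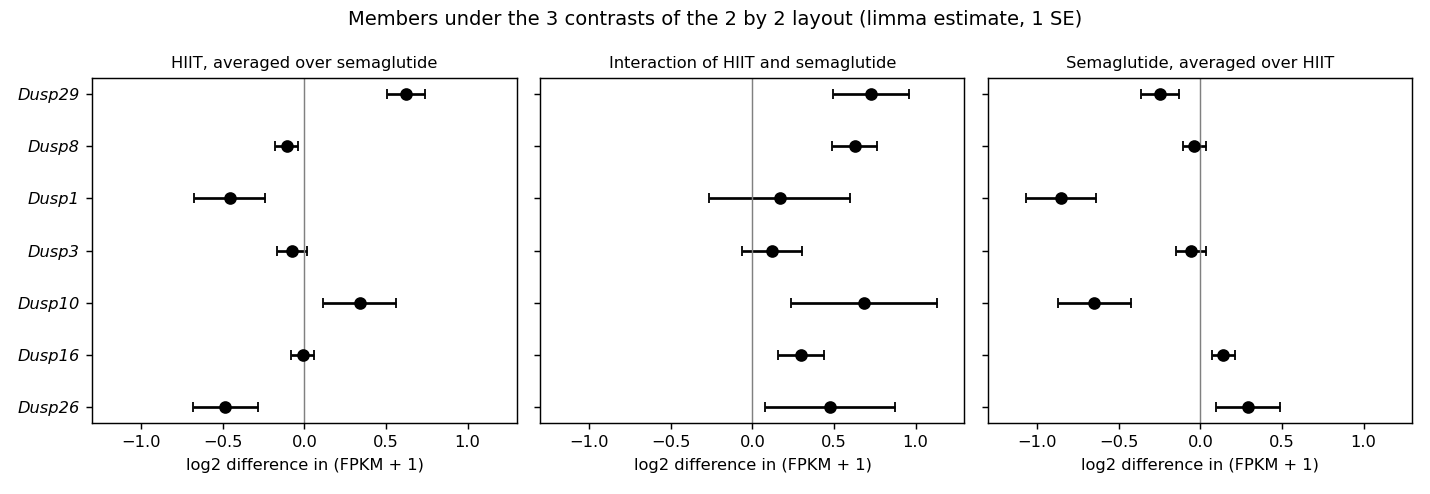
Log2 differences in (FPKM + 1) of the 7 genes (rows) with 1 SE (whiskers) for HIIT averaged over semaglutide, the interaction, and semaglutide averaged over HIIT, from limma. In the interaction panel, which is part of what chose the genes, the points lie from 0.12 to 0.73, and Dusp1 lies farthest left in the semaglutide panel, at -0.85.

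The training and interaction comparisons together picked Dusp29 (interaction 0.73) and Dusp8 (0.63), and the other 5 genes were chosen with interaction results known. The signs of the 7 in the interaction are therefore a description. Nothing is read from them against all genes, whose median was -0.06 with 4221 of 10666 above 0. Dusp3 was at 0.12 ± 0.18 (SE), Dusp10 was at 0.68 ± 0.45 (SE), Dusp26 at 0.48 ± 0.40, Dusp16 at 0.30 ± 0.14 and Dusp1 at 0.17 ± 0.43. The 7 stayed above 0 under each of the 3 other scalings, while Dusp1 was below 0 when HIIT replicate 1, semaglutide replicate 2 or combination replicate 1 was left out, and Dusp3 when HIIT replicate 3 was. Without the 2 combination libraries of lowest median, Dusp10 and Dusp3 were below 0. All 10 slow-fibre markers (median 1.12) and all 10 hepatocyte markers (median 2.38) were also above 0 in the interaction, with slow-fibre sums of 1086 to 2129 FPKM (control), 274 to 926 (HIIT), 415 to 1321 (semaglutide) and 216 to 1093 (combination). Their part in the phosphatase values was not tested.

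The rest of the family was taken by function. Of 24 other dual specificity phosphatases and related pseudophosphatases listed, 22 were in the table and 15 passed the filter. With semaglutide averaged over HIIT, 0 of the 15 rose and 1 fell (6.67%), against 4.69% and 12.2% of all genes. The median of the 15 was -0.12. Styx, a pseudophosphatase that binds ERK without catalysis, fell by 0.36 (SE 0.08, limma adjusted p = 0.0168). Its 6 libraries of injected mice lay between 3.66 and 4.08 FPKM, and the uninjected ones between 4.28 and 6.29. A processed copy of Styx is also in the table, so the split of its reads is uncertain. The call was lost with median centring (-0.25, limma adjusted p = 0.0759). Without the 2 combination libraries of lowest median, which leaves only combination replicate 1 in that group, the difference was -0.37.

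Dusp13a, a muscle phosphatase gene that shares its locus with the testis-type Dusp13b, was the most abundant of the family at 55.8 to 81.1 FPKM, and the split of reads between them is uncertain. In the RefSeq order on GRCm38.p6 their locus is the neighbour of Dusp29 on chromosome 14. Dusp13b had the lowest interaction of the family, -1.41 ± 0.66 (SE, limma adjusted p = 0.632), opposite in sign to Dusp29. Semaglutide libraries of Dusp13b stood at 20.9, 8.97 and 14.6 FPKM and combination libraries at 10.5, 4.46 and 2.09. Their ranges overlapped.

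In the interaction 0 of the 15 other family genes passed, with 4 above 0 and a median of -0.10. The highest of the 15 was at 0.96, above the highest of the 7 members (0.73). Dusp7, a cytoplasmic ERK phosphatase, was at 0.95 ± 0.26 (SE, limma adjusted p = 0.632). Its control libraries stood at 6.47, 8.34 and 8.81 FPKM, HIIT at 5.70, 5.37 and 5.97, semaglutide at 4.55, 6.14 and 4.51 and the combination at 10.7, 5.93 and 7.42. Like Dusp8, Dusp7 was lower in every HIIT and semaglutide library than in every control library, as were 1.98% of the genes kept. Dusp11, which acts on RNA, stood at 6.81, 3.67 and 3.84 FPKM in the combination libraries and between 7.52 and 10.1 in the 9 others. Dusp12 stood at 2.11, 1.67 and 0.729 FPKM in the combination libraries and between 2.32 and 3.39 in the 9 others. Both were thus lowest in all 3 combination libraries, as were 3.18% of the genes kept, and combination replicates 2 and 3 also had the lowest medians of the 12. The part of those low medians in both values was not tested. Dusp11 and Dusp12 had interactions of -0.75 ± 0.25 and -0.65 ± 0.26 (limma adjusted p = 0.632 for both). With HIIT averaged over semaglutide 0 of the 15 passed, and Dusp11 had the smallest p (-0.40 ± 0.13, limma adjusted p = 0.35).

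**Figure D3:**
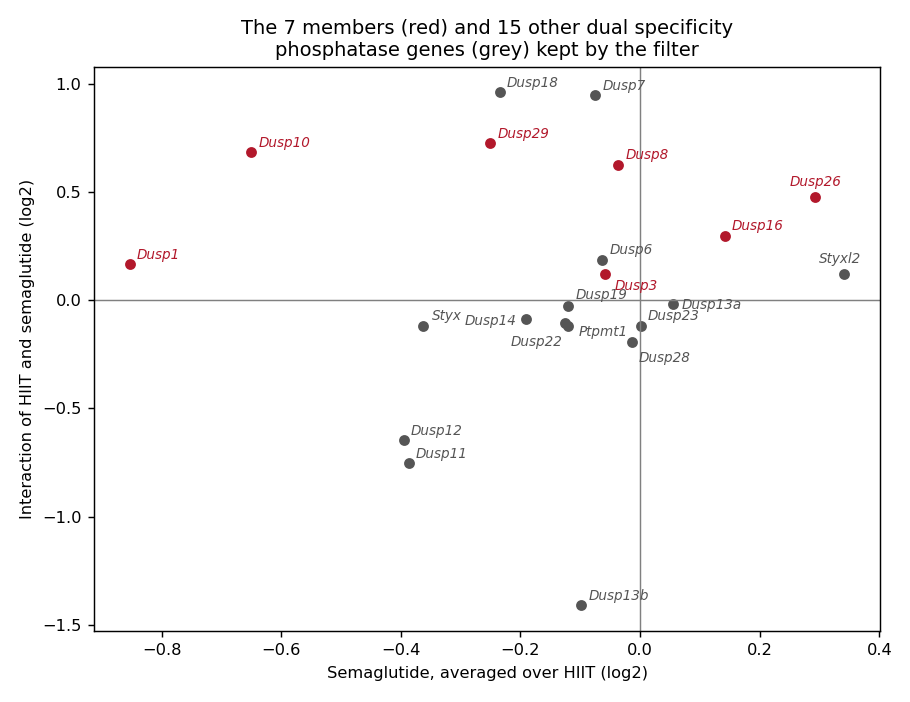
Log2 difference with semaglutide averaged over HIIT (horizontal axis) against the interaction of HIIT and semaglutide (vertical axis) for the 7 phosphatase genes (red) and 15 other genes of the family (grey). The red points lie from 0.12 to 0.73 on the vertical axis, which is part of what chose them, and Dusp13b lies lowest at -1.41.

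The kinases on which these phosphatases act were compared under semaglutide averaged over HIIT. Of 14 MAP kinase genes 9 were kept, 0 rose and 2 fell (22.2%), with a median of -0.14. Over all genes 4.69% rose and 12.2% fell. The lists were written with earlier results of these libraries known, so their shares are a description. Mapk7 (ERK5) fell by 0.37 (SE 0.10, limma adjusted p = 0.0269) from a mean of 1.66 to 1.06 FPKM, and Mapk3 (ERK1) fell by 0.39 (SE 0.12, limma adjusted p = 0.0446) from 11.7 to 8.61 FPKM. Both calls were lost without control replicate 1 or 2, HIIT replicate 1, semaglutide replicate 1, or combination replicate 2 or 3, and with median centring. That of Mapk7 was also lost without semaglutide replicate 3, and that of Mapk3 also when semaglutide replicate 2 or the third replicate of control or HIIT was left out (limma adjusted p up to 0.0698 and 0.103 without 1 library). With a replicate block over all groups, 1 of the 9 fell. The p38 genes Mapk14 (-0.11 ± 0.07) and Mapk12 (-0.00 ± 0.06) and the JNK gene Mapk8 (-0.17 ± 0.11) did not pass.

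Of 28 upstream kinase genes 26 were kept, 1 rose and 2 fell (list median 0.02), against 4.69% and 12.2% of all genes. Under median centring 4 rose, where 1153 of all 10666 genes rose. Map3k14, the kinase of the alternative NF-kappaB pathway, rose by 0.40 (SE 0.08, limma adjusted p = 0.0116). Map3k5 (ASK1), which drives JNK and p38 under oxidative stress, fell by 0.45 (SE 0.11, limma adjusted p = 0.0207), and the stress kinase Taok3 fell by 0.40 (SE 0.10, limma adjusted p = 0.02). Both stood near an FPKM of 1 in uninjected mice, and both calls were lost without control replicate 2 (limma adjusted p up to 0.0551 without 1 library), that of Map3k5 also without semaglutide replicate 1 or combination replicate 2. Of 19 scaffold and feedback inhibitor genes 14 were kept and 0 passed (median -0.04). The smallest p there were those of the Ras inhibitor Rasa1 (-0.21 ± 0.08, limma adjusted p = 0.108) and of Spred2 (-0.23 ± 0.10, limma adjusted p = 0.117).

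Downstream, 3 of 10 MAP kinase-activated kinase genes rose and 0 fell (list median -0.06), against 4.69% and 12.2% of all genes. Mknk2, which phosphorylates the cap-binding factor eIF4E, rose by 0.51 (SE 0.08, limma adjusted p = 0.004), from 56.7 to 75.0 FPKM in uninjected mice to 82.7 to 116 in injected ones, without overlap. Rps6ka5 (MSK1), a chromatin kinase of p38 and ERK, rose by 0.61 (SE 0.11, limma adjusted p = 0.00735). Mapkapk3 rose by 0.33 (SE 0.09, limma adjusted p = 0.0275), a call lost in 7 of 12 leave-one-out fits. It was lost without control replicate 1, HIIT replicate 1, any 1 semaglutide replicate, or combination replicate 2 or 3 (limma adjusted p up to 0.0628).

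Of 24 transcription factor genes phosphorylated by MAP kinases or induced through them, 20 were kept. Of these 4 rose (20%) and 1 fell (5%), against 4.69% and 12.2% of all genes. The list median was 0.09. Jun, a target of JNK that also binds its own promoter, had control libraries at 15.04, 15.5 and 15.4 FPKM and HIIT libraries at 16.4, 22.5 and 19.2. Its semaglutide libraries stood at 50.9, 35.3 and 44.8 FPKM and its combination libraries at 33.2, 40.6 and 34.9. Every library of an injected mouse lay above every uninjected one, and Jun rose by 1.16 (SE 0.10, limma adjusted p = 0.000289). Mef2a, a muscle transcription factor (0.32 ± 0.08, limma adjusted p = 0.0245), the related Mef2d (0.22 ± 0.06, limma adjusted p = 0.0421) and the immediate early gene Ier3 (0.35 ± 0.09, limma adjusted p = 0.0299) rose, and Elk3 fell (-0.37 ± 0.10, limma adjusted p = 0.0352). These 4 calls each ended without semaglutide replicate 2 or combination replicate 3, among others, whereas Jun passed without any single library. The other immediate early genes did not pass: Fos was at 0.65, Egr1 at 0.40, Junb at 0.36 and Atf3 at 0.10.

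Most of the listed genes that glucocorticoids induce rose, whereas Dusp1 fell. The list holds 18 genes, counting the receptor gene Nr3c1, and 12 rose, 0 fell and 6 did not pass, against 4.69% of all genes that rose. Its median was 0.87, against -0.08 over all genes. The list was written with earlier results of these libraries known, and its genes are not read as a measure of glucocorticoid action, which was not tested. Fkbp5, a chaperone of the glucocorticoid receptor, had control libraries at 26.0, 46.9 and 30.5 FPKM, HIIT libraries at 47.4, 66.0 and 45.0, semaglutide libraries at 100.4, 109.1 and 82.4 and combination libraries at 96.7, 97.6 and 92.5. The injected and uninjected libraries did not overlap, and Fkbp5 rose by 1.18 (SE 0.14, limma adjusted p = 0.00119). The kinase gene Sgk1 rose by 0.92 (SE 0.10, limma adjusted p = 0.000643), the muscle ubiquitin ligase gene Fbxo32 by 1.304 (SE 0.14, limma adjusted p = 0.000833) and the cell cycle inhibitor Cdkn1a by 1.26 (SE 0.18, limma adjusted p = 0.00277). Per1 (-0.04) and Nr3c1 (-0.10) were the 2 below 0. Without the 3 liver-rich libraries 7 of the 18 rose.

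**Figure D4:**
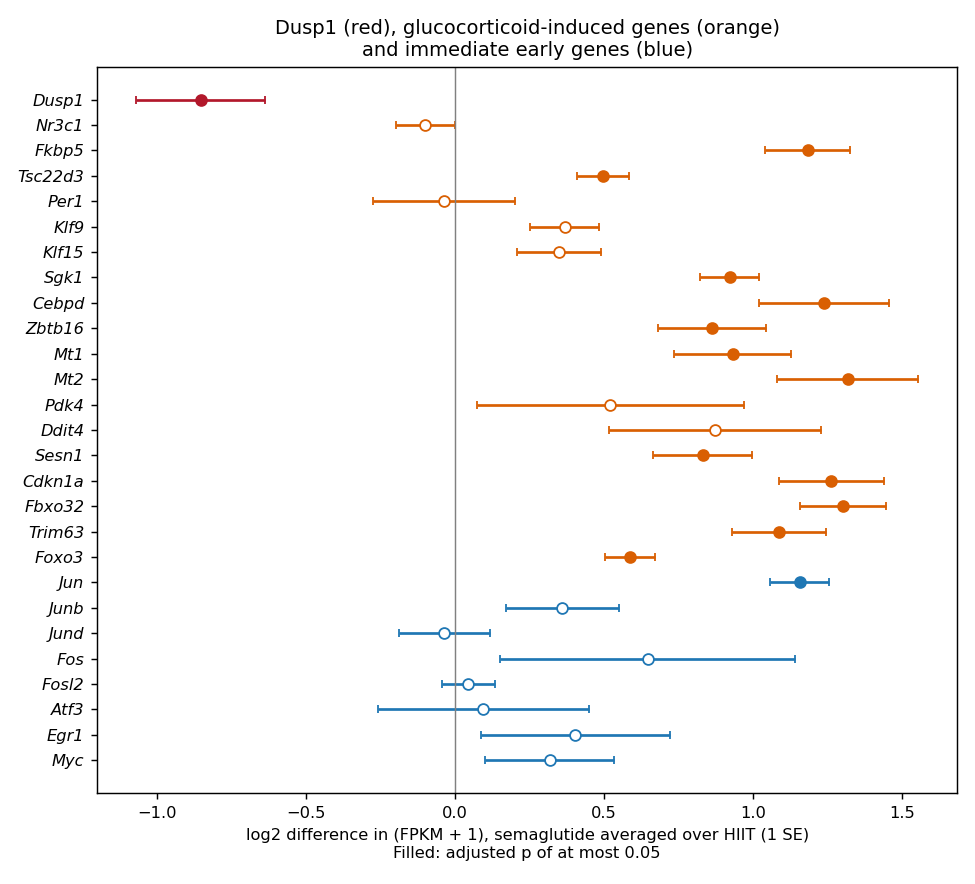
Log2 difference in (FPKM + 1) with semaglutide averaged over HIIT (horizontal axis, 1 SE whiskers) for Dusp1 (red), the 18 genes of the glucocorticoid list (orange) and 8 immediate early genes (blue). Filled points passed an adjusted p of 0.05: Dusp1 lies at -0.85, while Fkbp5 lies at 1.18 and Jun at 1.16.

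Genes that respond when a muscle loses its nerve, as Dusp29 is known to do, were listed by function. Of 18, 14 were kept, 0 rose and 1 fell with semaglutide averaged over HIIT (list median 0.16), against 4.69% and 12.2% of all genes. Under median centring 2 rose, where 1153 of all 10666 genes rose. The list was not split by the direction of that response, so its counts and median are not read as a response to nerve loss. Hdac9, a deacetylase of muscle that represses nerve-dependent genes, fell by 1.08 (SE 0.13, limma adjusted p = 0.00126), from a mean of 2.02 to 0.432 FPKM.

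The genes whose pattern over the 12 libraries was most like that of Dusp29, by Pearson r of log2(FPKM + 1), were Fitm1, a muscle lipid droplet gene (0.91), Mpnd (0.88), Siah2 (0.88), Jak2 (0.87) and Atosb (0.86). Fitm1 ran from 79.8 to 88.5 FPKM under semaglutide and from 86.1 to 101.5 in the 9 other libraries, a much narrower span than that of Dusp29. After the group means were taken out, the closest genes were Btbd6 (0.94), Ppp1r11 (0.93), Snrpn (0.92), Dpp3 (0.92) and Pik3c2b (0.89), so no gene was in both rankings. For Dusp8 the closest over the libraries were Eea1, an endosome tether (0.90), Arhgef11 (0.85), Mecom (0.83), Ggact (0.83) and Txlnb, a muscle gene (0.83). Within groups the closest included Susd6 (0.91), Txlnb (0.91), Nup153 (0.90) and Akap10 (0.90). Txlnb was the gene in both rankings of Dusp8. These r are over 12 libraries that share groups and scaling and describe likeness only.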

How the data were processed

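RNA of 12 muscle libraries (4 groups of 3) was poly(A) selected and read in pairs on a NovaSeq from strand-specific libraries, per the labels' protocols. Tools named in the submitters' processing notes, without their roles, are STAR 2.7.9a, StringTie 2.1.4, featureCounts 2.0.1, Trimmomatic 0.36, FastQC and CASAVA, with the build GRCm39. What the authors deposited is a single FPKM table of 22390 features. The tool that gave the FPKM is not given in the sources used here. Depth is not stated. It was estimated at 17.2 to 21.3 M fragments per library from the smallest FPKM steps of single-transcript genes, with transcript lengths of GENCODE M21, an annotation of an older build. So few values fell on a step (43 to 55 per library) that the estimate is rough, and no counts were recovered.

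The FPKM were used as log2(FPKM + 1), which understates changes of weakly expressed genes. Features that reached an FPKM of 1 in 3 or more of 12 libraries were kept (10666). limma 3.58.1 in R 4.3.3 fitted a mean per group with trended, robust empirical Bayes and 8 residual degrees of freedom. Tests were two-sided, p-values were adjusted by Benjamini and Hochberg's method across the kept genes, and a gene was called at 0.05. Because Dusp29 and Dusp8 were picked from the training and interaction comparisons, the 7 genes were tested only for semaglutide averaged over HIIT.

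The members and all lists were chosen with earlier results of these data known. Genes named beside the members were taken by rule: up to 4 called genes with the smallest p in each pathway list (or the 2 with the smallest p where none was called), called genes of the family, and the 5 genes most like Dusp29 and Dusp8. One gene of these rankings is not reported here. Further genes, such as Kdr, Dusp7, Dusp11, Dusp12, Dusp13a, Dusp13b, Mapk14 and Fos, were named after their values were seen. Alternatives were another pseudocount (0.1), other filters, TMM rescaling (factors computed on the FPKM), median centring, scaling without mitochondrial transcripts, plain empirical Bayes, a replicate block, and leaving out libraries. Leaving out the 2 combination libraries of lowest median, and a block within the HIIT and combination groups, were chosen after seeing the data. Sequences came from RefSeq tables on GRCm38.p6. Differences in how the authors' FPKM were scaled to depth would move all genes of a library together.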

Additional observations from a re-analysis of the deposited data

Results flagged for a closer look

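Dusp8 moved in opposite directions with semaglutide depending on training. Without HIIT every semaglutide library was below every control library (-0.35 on the log2(FPKM + 1) scale), and with HIIT every combination library was above every HIIT library (0.28). The same pattern of full separation in both directions was seen in 58 of 10666 genes (0.544%). The difference between both effects is the interaction that chose Dusp8, so it was not tested.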

How the results depend on the processing

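Across 12 results on the 7 genes and the number of calls, 249 of 275 alternative values kept direction and side of the threshold or moved little. For the 6 of 7 genes that did not pass with semaglutide averaged over HIIT, keeping the side of the threshold meant staying uncalled. The number of calls moved in 10 of 23 alternatives. Fits that leave 1 library in a group are counted here. With semaglutide averaged over HIIT, Dusp8 turned from -0.04 to 0.034 with TMM rescaling and to 0.075 with median centring. Dusp3 turned from -0.06 to 0.025 and 0.053 under these scalings and to 0.0078 without HIIT replicate 2, and ran from -0.13 to 0.0078 over the leave-one-out fits. The cause was not tested. Dusp1 was -1.01 without the 3 liver-rich libraries and -0.61 without the 2 combination libraries of lowest median. These fits leave only control replicate 3 and only combination replicate 1 in their groups. Leaving out single libraries gave -0.99 to -0.71 for Dusp1, with an adjusted p above 0.05 in 5 of 12 (named in the report). Dusp10 ran from -0.79 to -0.45 over the leave-one-out fits, passing without HIIT replicate 1. It was -1.04 with combination replicate 1 as the only library of its group. The Dusp8 interaction was 0.75 with a pseudocount of 0.1. Calls numbered 970 at an FPKM of at least 5 (fewer genes tested), 349 without the liver-rich libraries, 266 without the 2 combination libraries, and 874 to 2547 without single libraries, against 1796. They were 874 to 1153 without control replicate 1 or 2, HIIT replicate 1, semaglutide replicate 1 or 2, or combination replicate 2 (lowest) or 3, and were highest without combination replicate 1. TMM rescaling gave 974 higher and 1048 lower. With the replicate block there were 1699 calls, Dusp1 was at -0.85 (limma adjusted p = 0.0241) and the block changed no call on the 7 genes. Over all groups the replicate numbers did not pair the libraries: deviations from the group means of same-numbered libraries correlated at -0.23 to 0.29 over 18 pairs, and 2 of 12 libraries correlated best with their own number. Between HIIT and combination, however, the 3 pairs correlated at 0.22, 0.27 and 0.29, a hint of pairing that no label gives. A replicate block within these 2 groups gave 2640 calls, Dusp1 at limma adjusted p = 0.0277 and a call for Dusp10 (-0.65, limma adjusted p = 0.00375), with no other change of call on the 7 genes. Dusp26 ran from 0.12 (without HIIT replicate 2) to 0.40 over the leave-one-out fits. Of 614 alternative values for 27 called genes of the pathway lists, 90 lost the call and 0 reversed, counting the fits that leave 1 library in a group. Jun, Fkbp5, Sgk1, Fbxo32, Cdkn1a, Hdac9 and Mknk2 passed in all alternatives that kept more than 1 library in every group. At the estimated 57 to 188 fragments per library, counting error limits Dusp29 most among the 7.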
